A study of Rattus norvegicus with 24 samples.

Results

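The miRs described here are miR-24-3p, miR-26a-5p, miR-26b-5p, miR-148a-3p, miR-148b-3p and miR-152-3p, which comprise miRs known to sustain insulin transcription and their relatives with the same seed. They were selected by name alone, as the rat mature miRs listed as rno-miR-24-3p, rno-miR-26a-5p, rno-miR-26b-5p, rno-miR-148a-3p, rno-miR-148b-3p and rno-miR-152-3p, and all 6 were found among the 758 miRs measured. On all 24 arrays, 4 of the 6 gave a signal well above background (miR-24-3p, miR-26a-5p, miR-26b-5p and miR-148b-3p), whereas miR-148a-3p and miR-152-3p did so on 0 arrays. This required the scanner's mark on 8 or more of the 16 spots of a miR, and such a miR is called detected below.

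The samples are INS1 cells, an insulin-producing line from a rat insulinoma that stands in for pancreatic β-cells. Cells were left untreated or exposed to 125 nM Givinostat, an inhibitor of lysine deacetylases, for 1 h, and then cultured for 6 h or 24 h with or without IL-1β (150 pg/ml) plus IFN-γ (0.1 ng/ml), inflammatory cytokines that are toxic to β-cells. The 8 groups are named by time and treatment: neither agent (6h_Ctrl, 24h_Ctrl), cytokines without Givinostat (6h_Cyt, 24h_Cyt), Givinostat without cytokines (6h_Giv_Ctrl, 24h_Giv_Ctrl) and Givinostat with cytokines (6h_Giv_Cyt, 24h_Giv_Cyt), with 3 one-colour arrays each. The paper speaks of triplicates while the deposited design text calls the arrays of a group technical replicates, so the p-values below measure the spread between these arrays, and INS1 is 1 cell line, which limits it as a model of β-cells.

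A mature miR guides the silencing complex to mRNAs that pair with its seed, the bases near its 5′ end, and lowers their translation or stability. In β-cells, miR-24, miR-26 and miR-148 are known to sustain insulin gene transcription by restraining transcriptional repressors of the insulin gene, among them Sox6 and Bhlhe22. miR-182 is known for the same role. miRs of the same seed are expected to share targets, so the seed relatives are given together.

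The mature sequences from RefSeq (assembly GRCr8) are shown because they define the 3 seed families. They are written 5′ to 3′, with the seed (bases 2 to 8) in capitals.
miR-24-3p: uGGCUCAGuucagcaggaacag
miR-26a-5p: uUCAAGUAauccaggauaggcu
miR-26b-5p: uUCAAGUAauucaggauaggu
miR-148a-3p: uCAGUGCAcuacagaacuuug
miR-148b-3p: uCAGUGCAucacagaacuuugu
miR-152-3p: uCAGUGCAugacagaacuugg
The seed GGCUCAG of miR-24-3p was shared with 0 other rat mature miRs in that table. miR-26a-5p and miR-26b-5p shared the seed UCAAGUA with each other alone, and miR-148a-3p, miR-148b-3p and miR-152-3p formed the third family, with the seed CAGUGCA. Outside the seed, counted from 1 at the 5′ end of the first miR named, miR-26b-5p differed from miR-26a-5p by C11U and C21U and by being 21 instead of 22 bases long. miR-148a-3p differed from miR-148b-3p by U9C and C10U and miR-152-3p differed from it by C10G and U20G, and both were 21 instead of 22 bases long.

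The differences between relatives lie inside the stretches that the probes read. Each miR was measured by a pair of probe sequences of different length with 8 spots each. The shorter ones, 5′ to 3′, are shown for the detected miRs.
miR-24-3p probe: ctgttcctgctgaactg
miR-26a-5p probe: agcctatcctggatt
miR-26b-5p probe: acctatcctgaattacttga
miR-148b-3p probe: acaaagttctgtgatgcac
They are complementary to bases 6 to 22 of miR-24-3p, 8 to 22 of miR-26a-5p, 2 to 21 of miR-26b-5p and 4 to 22 of miR-148b-3p, and the longer probe of each pair reached 1 base further towards the 5′ end. In register, miR-26b-5p differed from the stretch read by either miR-26a-5p probe at 3 bases, counting the end that it lacks, and miR-26a-5p differed from the stretch read by the miR-26b-5p probes at 2 bases. miR-148a-3p and miR-152-3p each differed from the stretch read by the miR-148b-3p probes at 3 bases. Signal from a relative on these probes was not tested.

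The array annotation, on genome build rn4, placed the shorter probe of miR-24-3p at 2 loci, chr17:7351019-7351035 and chr19:25638495-25638511. It placed that of miR-26a-5p at chr8:123981643-123981656, that of miR-26b-5p at chr9:73734078-73734096 and that of miR-152-3p at chr10:85608304-85608317, spans that are 1 base shorter than the probes themselves. The probes of miR-148a-3p and miR-148b-3p were listed as unmapped. In the RefSeq gene table of GRCr8, used for names, Mir24-1 lay within the span of the protein-coding gene Aopep together with Mir23b, Mir27b and Mir3074 within 10000 bases, and Mir24-2 lay beside Mir23a and Mir27a. Mir26a lay within Ctdspl and Mir26b within Ctdsp1, genes of small phosphatases that act on RNA polymerase II. Mir148b lay within Copz1 and Mir152 within Copz2, genes of coatomer subunits, and Mir148a lay within 0 genes of that table. Whether these loci are intronic is not given by the table used here.

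The arrays detected 129 to 211 miRs each, and the 75th percentile of their processed signal ranged from 271 to 1003 in scanner units. The 3 arrays of 24h_Cyt were among the brightest, at 1003, 742 and 596, against 347, 271 and 347 for 24h_Ctrl, and these 2 groups shared no slide. Those of 24h_Giv_Cyt read 571, 542 and 487, against 303, 452 and 435 for 24h_Giv_Ctrl. The 24h_Giv_Cyt arrays at 571 and 542 lay on slide 4, as did all arrays of 24h_Ctrl and the 24h_Giv_Ctrl array at 303. The array of 6h_Giv_Ctrl replicate 1, which lay on slide 1 with 24h_Cyt replicates 1 and 2, correlated with the other arrays of its group at 0.909 to 0.913 over the detected miRs, and 6h_Giv_Cyt replicate 3 at 0.933 to 0.950, against 0.997 and 0.996 for the remaining pair of each group. The β-cell markers miR-375-3p and miR-7a-5p were detected on every array. Of the 11 markers of other tissues, miR-206-3p of skeletal muscle was detected on 24 arrays, miR-1-3p on 3 and miR-126a-3p on 2, and the other 8, among them miR-122-5p of liver and miR-142-3p, miR-223-3p and miR-451-5p of blood cells, on 0. Both β-cell markers were thus present, and miR-206-3p was the exception among the markers of other tissues.

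Across the 8 groups the levels of the insulin-supporting miRs lay close together (log2 of quantile-normalized signal, mean ± SD, n = 3 arrays per group). miR-24-3p, which is encoded at 2 loci, was at 10.37 ± 0.15 in 6h_Ctrl, 10.35 ± 0.17 in 6h_Cyt, 10.38 ± 0.18 in 6h_Giv_Ctrl and 10.44 ± 0.19 in 6h_Giv_Cyt. At 24 h it was at 10.42 ± 0.13 in 24h_Ctrl, 10.30 ± 0.067 in 24h_Cyt, 10.43 ± 0.051 in 24h_Giv_Ctrl and 10.30 ± 0.18 in 24h_Giv_Cyt. The lowest group mean (24h_Cyt) and the highest (6h_Giv_Cyt) were 0.14 apart, less than the pooled SD of 0.15 between arrays of a group. Of the 116 other miRs detected on all arrays, 5 had a narrower range of group means, and the median range of the 117 was 0.31.

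miR-26a-5p was at 9.72 ± 0.098 in 6h_Ctrl, 9.78 ± 0.10 in 6h_Cyt, 9.82 ± 0.069 in 6h_Giv_Ctrl and 9.76 ± 0.089 in 6h_Giv_Cyt. At 24 h it was at 9.60 ± 0.18 in 24h_Ctrl, 9.75 ± 0.10 in 24h_Cyt, 9.74 ± 0.068 in 24h_Giv_Ctrl and 9.82 ± 0.11 in 24h_Giv_Cyt. The order ran from 24h_Ctrl to 24h_Giv_Cyt, 0.22 apart, with a pooled SD of 0.11. Its seed relative miR-26b-5p was at 7.21 ± 0.16 in 6h_Ctrl, 7.16 ± 0.096 in 6h_Cyt, 7.15 ± 0.25 in 6h_Giv_Ctrl and 7.09 ± 0.22 in 6h_Giv_Cyt. At 24 h it was at 7.10 ± 0.18 in 24h_Ctrl, 7.28 ± 0.11 in 24h_Cyt, 7.22 ± 0.093 in 24h_Giv_Ctrl and 7.12 ± 0.24 in 24h_Giv_Cyt. Here the order ran from 6h_Giv_Cyt to 24h_Cyt, 0.19 apart, with a pooled SD of 0.18.

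miR-148b-3p, the detected member of the miR-148 family, had the widest range of group means of the 4 detected miRs. The arrays read 6.65, 6.92 and 6.86 in 6h_Ctrl, 6.90, 6.73 and 6.91 in 6h_Cyt, 7.11, 6.64 and 6.59 in 6h_Giv_Ctrl and 6.89, 6.77 and 6.44 in 6h_Giv_Cyt. At 24 h they read 6.74, 6.45 and 6.73 in 24h_Ctrl, 7.03, 6.84 and 6.95 in 24h_Cyt, 6.61, 6.82 and 6.92 in 24h_Giv_Ctrl and 6.57, 6.83 and 6.78 in 24h_Giv_Cyt. The group means ran from 6.64 in 24h_Ctrl to 6.94 in 24h_Cyt, 0.30 apart, with a pooled SD of 0.18. The highest single array was 6h_Giv_Ctrl replicate 1 at 7.11 and the lowest was 6h_Giv_Cyt replicate 3 at 6.44, the arrays that correlated least with their groups. Neighbours in the order of groups were at most 0.093 apart for miR-148b-3p, 0.067 for miR-26b-5p and 0.047 for miR-24-3p, less than their pooled SD. For miR-26a-5p the lowest group, 24h_Ctrl, lay 0.12 below the next, 6h_Ctrl, and their arrays overlapped.

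**Figure D1:**
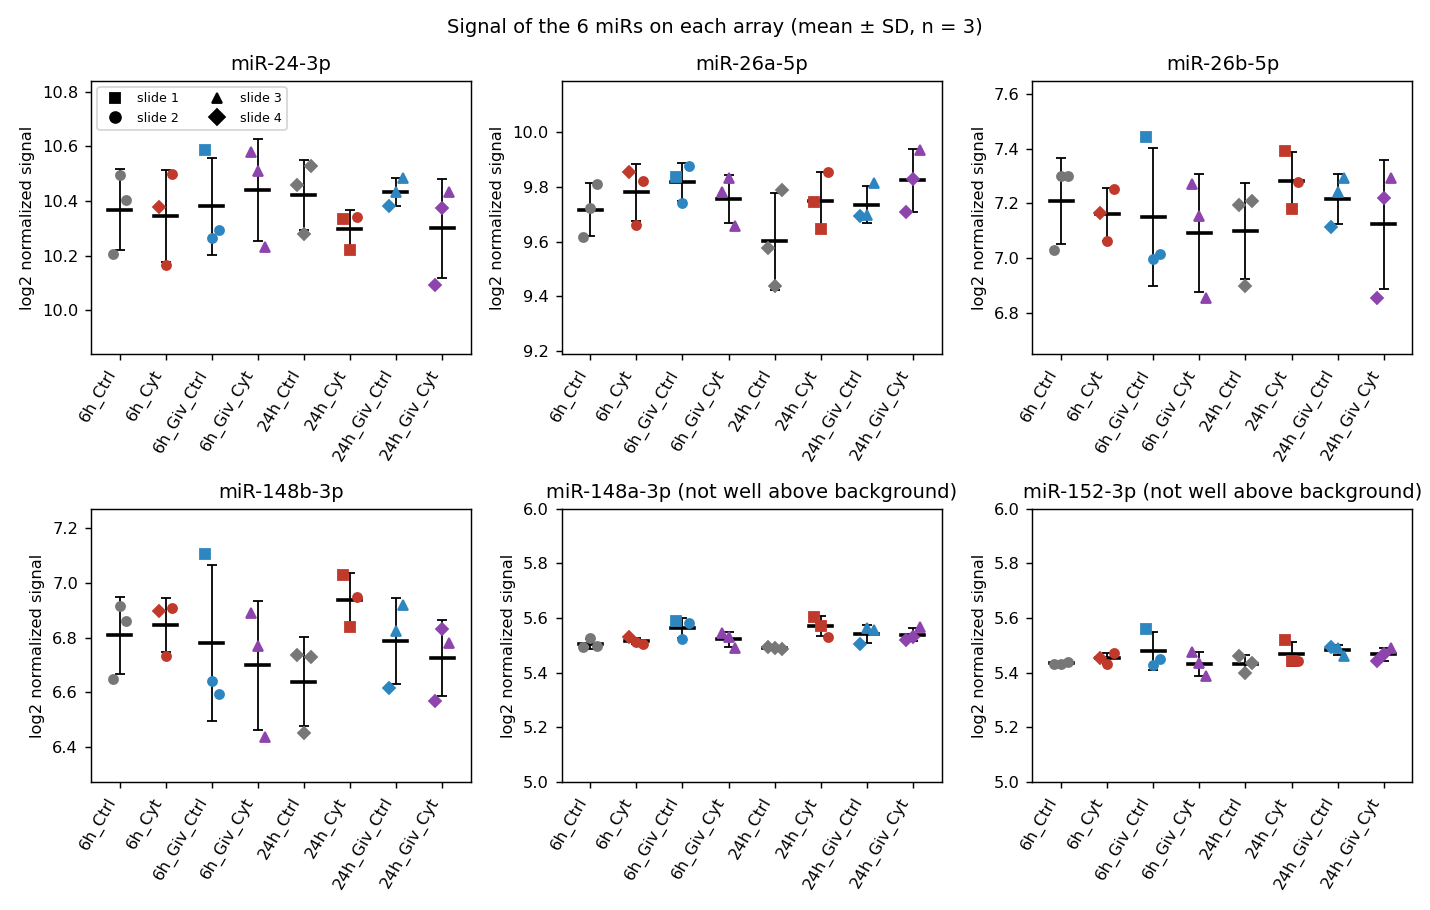
Log2 normalized signal (y axis) of the 6 miRs on each array in the 8 groups (x axis). Points are arrays, shaped by slide and coloured by treatment, and bars are the mean ± SD of 3 arrays; the y axes of all panels span 1 log2 unit. For miR-24-3p the 24h_Cyt and 24h_Ctrl arrays overlap, while the 24h_Cyt arrays of miR-148b-3p (6.84 to 7.03) lie above those of 24h_Ctrl (6.45 to 6.74).

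Cytokine exposure for 24 h without Givinostat gave the largest difference of a detected insulin-supporting miR, a higher signal of miR-148b-3p in 24h_Cyt than in 24h_Ctrl that did not pass the test. miR-26a-5p and miR-26b-5p also lay higher, and miR-24-3p lower, in 24h_Cyt, with 95% intervals that held 0. limma was fitted to the array means with Benjamini-Hochberg adjustment of p across the 758 miRs. A call needed a log2FC (the difference of group means on the log2 scale) of more than 0.1375 in either direction together with an adjusted p below 0.05. Of the 6 miRs 0 were called, against 31 of 758 miRs (4.09%), which became 14, 16, 17 and 20 without 24h_Ctrl replicate 2, 24h_Cyt replicate 2, 24h_Cyt replicate 1 and 24h_Ctrl replicate 1. In a fit to the 168 miRs detected in at least 1 group, 29 (17.3%) were called, and 0 of the 4 detected members. At an unadjusted p below 0.05 there were 2 of the 6, miR-148b-3p and the undetected miR-148a-3p, against 23.7% of all miRs. A limma fit with a pooled correlation between spots, which the paper's methods name, called 2 of the 6, against 6.33% of all miRs.

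For miR-148b-3p all 3 arrays of 24h_Cyt (6.84 to 7.03) lay above the 3 of 24h_Ctrl (6.45 to 6.74), as they did for 16.4% of all miRs and 24.4% of the 168 detected in at least 1 group. The difference was log2FC 0.30, SE 0.14, 95% interval 0.013 to 0.59, adjusted p = 0.189, or 1.23-fold with an interval of 1.01 to 1.50. Without 24h_Ctrl replicate 2, the lowest of these 6 arrays, the log2FC was 0.21. It was positive under all 17 other processings tried. The pooled correlation fit, the replicate block, the fits to detected miRs or compared groups alone and the changed thresholds cannot alter it. The deposited values repeat the median over spots. The log2FC ran from 0.22 with slide as a fixed block to 1.06 without normalization between arrays, where the median of all detected miRs was itself shifted by 0.70. It passed the test under 4 of the 17: the pooled correlation fit (adjusted p = 0.0118), no normalization, and the background-subtracted (processed) and total signals after scaling each array by its upper quartile of detected miRs (log2FC 0.57 and 0.53, adjusted p = 0.000606 and 0.00779). Array brightness differed between these groups as given above, and over the 24 arrays miR-148b-3p correlated with the log2 of the array's 75th percentile at r = 0.56 (median of the detected miRs -0.067). The 24 arrays include the bright ones of 24h_Cyt, so this r is not separate from the group difference. On 6h_Giv_Ctrl replicate 1, a bright array on the same slide without cytokines, miR-148b-3p was 0.49 above the mean of the other arrays of its group, where the median detected miR was 0.14 above. Without slide 1, which leaves 1 array of 24h_Cyt, the log2FC of 24h_Cyt vs 24h_Ctrl was 0.31. The part of brightness and slide in the 24h_Cyt difference was not tested.

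miR-26a-5p read 9.58, 9.44 and 9.79 in 24h_Ctrl and 9.75, 9.64 and 9.85 in 24h_Cyt, and the groups overlapped (log2FC 0.15, SE 0.084, 95% interval -0.030 to 0.32, adjusted p = 0.296). miR-26b-5p read 7.20, 6.90 and 7.21 in 24h_Ctrl and 7.39, 7.18 and 7.28 in 24h_Cyt, and again the groups overlapped (log2FC 0.18, SE 0.14, 95% interval -0.11 to 0.47, adjusted p = 0.457). The pair shares its seed, and neither passed the test here. However, miR-26b-5p passed it in the pooled correlation fit (adjusted p = 0.00752) and with the scaled processed and total signals (log2FC 0.35 and 0.34). Without normalization between arrays both passed, at log2FC 1.25 for miR-26a-5p and 1.12 for miR-26b-5p, against the shift of 0.70 of the median detected miR. Without 24h_Ctrl replicate 2 the log2FC was 0.066 for miR-26a-5p and 0.081 for miR-26b-5p.

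miR-24-3p read 10.46, 10.28 and 10.53 in 24h_Ctrl and 10.33, 10.22 and 10.34 in 24h_Cyt, and the groups overlapped. The difference was negative (log2FC -0.12, SE 0.11, 95% interval -0.37 to 0.12, adjusted p = 0.555) but turned to 0.88 without normalization between arrays, against the shift of 0.70 of the median detected miR there. It passed the test as lower in 24h_Cyt with the scaled processed and total signals (log2FC -0.35 and -0.36, adjusted p = 0.0225 and 0.0456), and as higher without normalization (adjusted p = 0.0150). The 95% interval of miR-24-3p corresponds to 0.776-fold to 1.09-fold, for the normalization used here and the spread between these arrays.

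The undetected relatives miR-148a-3p and miR-152-3p stayed at 5.49 to 5.61 and 5.39 to 5.56 on the 24 arrays, under the lowest signal of any miR well above background, which was 5.73 to 6.12 depending on the array. No fold is therefore given for them. The 3 arrays of 24h_Cyt read 5.61, 5.57 and 5.53 for miR-148a-3p and the 3 of 24h_Ctrl read 5.49, 5.49 and 5.49, a measured difference of 0.079 with an adjusted p of 0.0396, under the log2FC threshold. Of the other 4 miRs, 0 had an adjusted p below 0.05 in this comparison.

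Givinostat added to cytokines gave differences at 24 h that did not pass the test for any of the 6 miRs. The log2FC of 24h_Giv_Cyt vs 24h_Cyt was -0.21 for miR-148b-3p (95% interval -0.50 to 0.074), -0.16 for miR-26b-5p (-0.45 to 0.13), 0.076 for miR-26a-5p (-0.10 to 0.25) and 0.0011 for miR-24-3p (-0.24 to 0.24). Without 24h_Giv_Cyt replicate 1 the log2FC was -0.13 for miR-148b-3p and -0.026 for miR-26b-5p, and without 24h_Giv_Cyt replicate 3 that of miR-26b-5p was -0.24. The smallest adjusted p was 0.967, and 0 of the 6 were called, against 0.132% of all miRs. For miR-148b-3p the 3 arrays of 24h_Giv_Cyt (6.57 to 6.83) lay below the 3 of 24h_Cyt (6.84 to 7.03), with a gap of 0.0083 between the nearest arrays. They did so for 10.3% of all miRs and 17.9% of the 168 detected in at least 1 group. This comparison and the one above share the 24h_Cyt arrays.

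With Givinostat present, cytokine exposure for 24 h (24h_Giv_Cyt vs 24h_Giv_Ctrl) gave a log2FC of -0.061 for miR-148b-3p, -0.093 for miR-26b-5p, 0.089 for miR-26a-5p and -0.13 for miR-24-3p, with a smallest adjusted p of 0.619. Again 0 of the 6 were called, against 0.528% of all miRs. The difference between the cytokine effects with and without Givinostat at 24 h was tested as an interaction term, which was -0.36 for miR-148b-3p (SE 0.19, 95% interval -0.77 to 0.045) and -0.28 for miR-26b-5p (SE 0.20, -0.69 to 0.14), with adjusted p = 0.871 for the first. Of the 6 miRs 0 were called for this term, as of all miRs (0.0%). In the pooled correlation fit the term of miR-26b-5p passed (adjusted p = 0.0126), as did those of 2.9% of all miRs. Within slides, where both groups of 24h_Giv_Cyt vs 24h_Giv_Ctrl lay on slides 3 and 4, miR-148b-3p differed by -0.093 and 0.085, and miR-26a-5p by 0.18 and 0.074.

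Givinostat without cytokines gave a log2FC of 0.15 for miR-148b-3p, 0.13 for miR-26a-5p, 0.12 for miR-26b-5p and 0.0092 for miR-24-3p in 24h_Giv_Ctrl vs 24h_Ctrl, with a smallest adjusted p of 0.992 and 0 of the 6 called (0.0% of all miRs). At 6 h the 4 comparisons of the detected miRs gave log2FC between -0.15 (miR-148b-3p in 6h_Giv_Cyt vs 6h_Cyt) and 0.10 (miR-26a-5p in 6h_Giv_Ctrl vs 6h_Ctrl), with 0 of the 6 called in each and 0.0% of all miRs called. Without 6h_Giv_Ctrl replicate 1, 6h_Giv_Ctrl vs 6h_Ctrl went from -0.058 to -0.20 for miR-26b-5p and from -0.028 to -0.19 for miR-148b-3p. In 6h_Giv_Cyt vs 6h_Giv_Ctrl they then went from -0.060 to 0.086 and from -0.082 to 0.081. The cytokine comparison 6h_Cyt vs 6h_Ctrl lay between -0.051 for miR-26b-5p and 0.063 for miR-26a-5p. Over time, 24h_Ctrl vs 6h_Ctrl was -0.17 for miR-148b-3p, -0.11 for miR-26b-5p, -0.12 for miR-26a-5p and 0.055 for miR-24-3p. The other comparisons of 24 h with 6 h lay between -0.14 and 0.12, with 0 of the 6 called in each, against 0.792% of all miRs under cytokines, 0.396% under both agents and 0.0% in the comparisons without cytokines.

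Over the 12 comparisons and 6 miRs, 72 tests in all, 0 were called and 5 had an unadjusted p below 0.05, 4 of them of the undetected miR-148a-3p. Per comparison, 0.0% to 4.09% of all miRs were called and 3.17% to 23.7% had an unadjusted p below 0.05. The pooled correlation fit called 2 of the 72, against 0.0% to 6.33% of all miRs per comparison. Of the 18 interaction tests 0 were called and 2, both of miR-148a-3p, had an unadjusted p below 0.05, while the pooled correlation fit called 1. Per interaction term, 1.58% to 9.37% of all miRs had such a p, and the pooled correlation fit called 0.132% to 3.03%. The 95% intervals hold for the normalization used here and the spread between these arrays, and do not bound what other processings give. Over the 12 comparisons they reached 0.767-fold to 1.26-fold for miR-24-3p, 0.816-fold to 1.25-fold for miR-26a-5p, 0.732-fold to 1.39-fold for miR-26b-5p and 0.706-fold to 1.50-fold for miR-148b-3p. The plot of log2FC over the comparisons shows these intervals. For the difference between the cytokine effects at 24 h and at 6 h without Givinostat, the interaction term was 0.26 for miR-148b-3p (95% interval -0.14 to 0.67), and 0.528% of all miRs were called. The corresponding term for Givinostat at 6 h was called for 0.0% of all miRs.

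**Figure D2:**
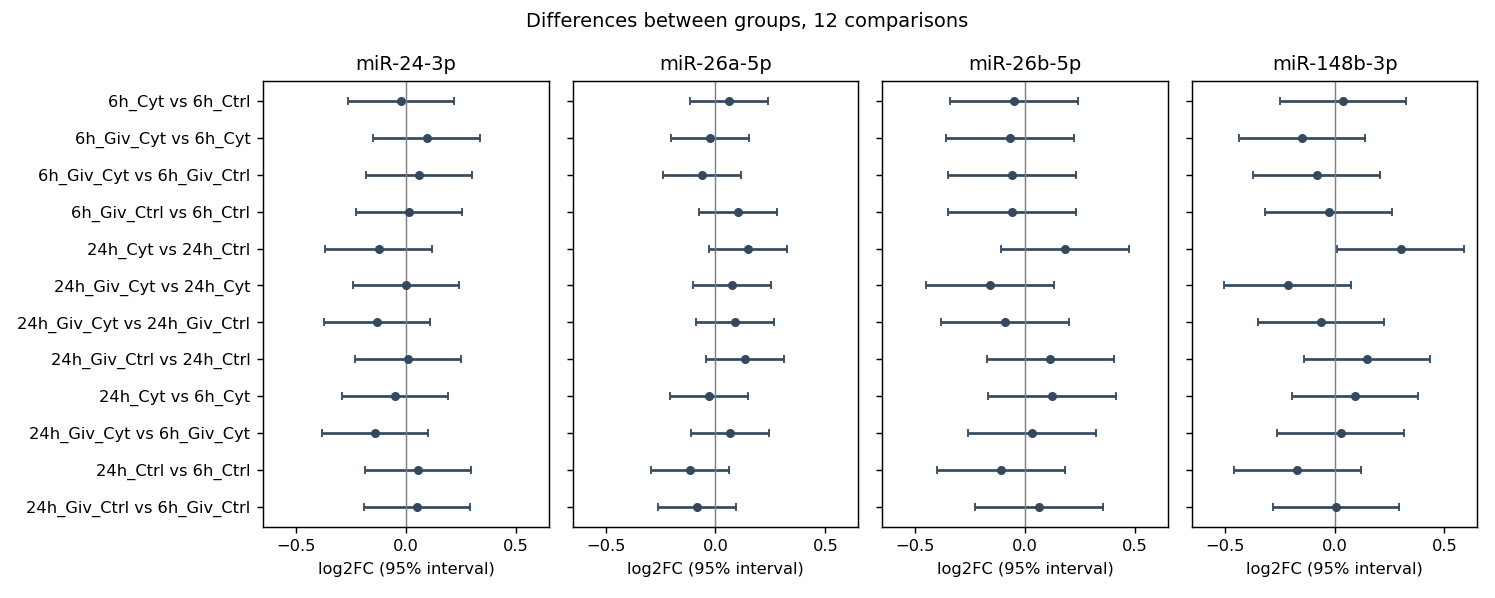
Log2FC (x axis) of the 4 detected miRs in the 12 comparisons (y axis), with points for the estimates and bars for limma's 95% intervals. The interval of miR-148b-3p in 24h_Cyt vs 24h_Ctrl (0.013 to 0.59) is the one that lies beside 0 and not across it, and its adjusted p is 0.189.

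The paired probe sequences of each detected miR gave the same direction in 24h_Cyt vs 24h_Ctrl. The shorter and the longer probe read a log2FC of 0.28 and 0.32 for miR-148b-3p, 0.17 and 0.19 for miR-26b-5p, 0.11 and 0.19 for miR-26a-5p and -0.17 and -0.082 for miR-24-3p, and 0 of these 8 were called in a limma fit to the 1806 probe sequences of all miRs. Over the 24 arrays the paired probes correlated at r = 0.94 for miR-26b-5p, 0.87 for miR-148b-3p, 0.75 for miR-24-3p and 0.57 for miR-26a-5p. For the undetected miR-148a-3p and miR-152-3p these were 0.31 and -0.018.

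**Figure D3:**
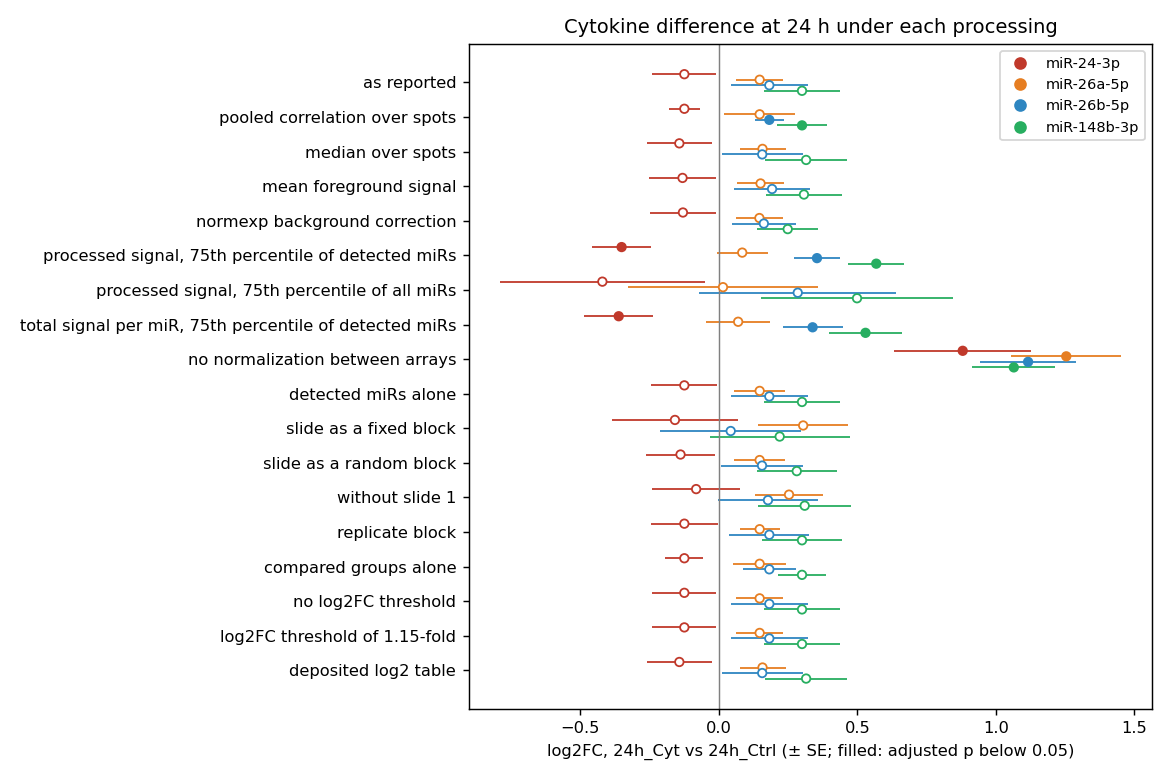
Log2FC of 24h_Cyt vs 24h_Ctrl (x axis, bars ± SE) for the 4 detected miRs under the processing reported and 17 others (y axis). Filled points have an adjusted p below 0.05. miR-148b-3p lies above 0 throughout, which includes processings that cannot alter the log2FC. Without normalization between arrays all 4 miRs lie between 0.88 and 1.25.

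The 4 detected miRs did not vary alike over the 24 arrays, which are not independent of each other, since arrays of a group share their treatment and all share the normalization. miR-26b-5p and miR-148b-3p, of different seeds, ran together (Pearson's r = 0.93), and of the 116 other detected miRs 0 were more like miR-26b-5p. miR-26a-5p and miR-26b-5p, of the same seed, correlated at r = 0.52, and 22 miRs were more like miR-26a-5p than miR-26b-5p was. miR-24-3p correlated with miR-26b-5p at 0.73, with miR-148b-3p at 0.59 and with miR-26a-5p at 0.43. Without 6h_Giv_Ctrl replicate 1 and 6h_Giv_Cyt replicate 3, r was 0.90 for miR-26b-5p with miR-148b-3p and 0.48 for miR-26a-5p with miR-26b-5p. After subtraction of the group means it was 0.95 and 0.68, and miR-24-3p then correlated at 0.95 with miR-26b-5p, 0.91 with miR-148b-3p and 0.74 with miR-26a-5p. Among arrays of the same group, miR-24-3p thus followed miR-26b-5p as closely as miR-148b-3p did.

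**Figure D4:**
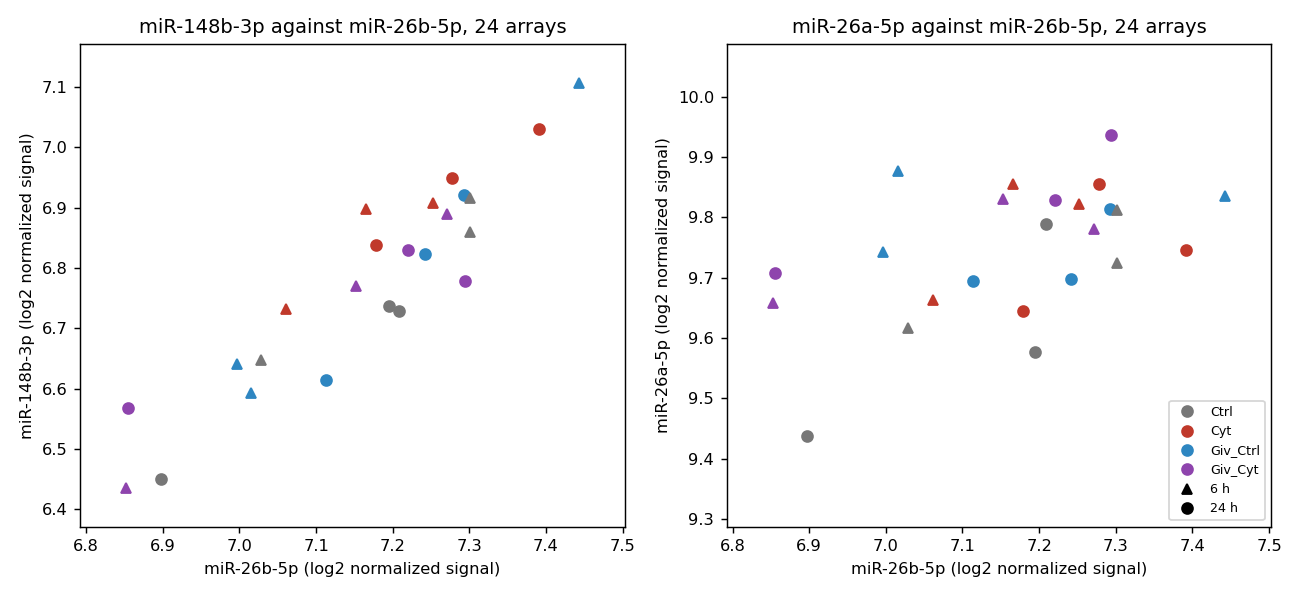
Log2 normalized signal of miR-148b-3p (left, y axis) and miR-26a-5p (right, y axis) against miR-26b-5p (x axis), with 1 point per array coloured by treatment and shaped by time. The left points follow a line (r = 0.93) and the right ones scatter (r = 0.52).

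The miRs with the most similar profiles to miR-148b-3p were miR-101b-3p (r = 0.97), miR-26b-5p (0.93) and miR-340-5p (0.92). Those most like miR-26b-5p were miR-148b-3p (0.93), miR-101b-3p (0.92) and miR-301a-3p (0.91). miR-24-3p was most like miR-185-5p (0.89), miR-103-3p (0.86) and miR-200c-3p (0.82). miR-26a-5p was most like miR-27b-3p (0.86), miR-30b-5p (0.83) and miR-22-3p (0.81). The 3 most similar profiles were thus shared in part between miR-26b-5p and miR-148b-3p and not with miR-26a-5p.

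The other arms and the cluster partners of these miRs form a list of 11, of which 3 were detected in at least 1 group: miR-23a-3p, miR-23b-3p and miR-27b-3p. The 7 opposite arms of the insulin-supporting miRs and miR-27a-3p were well above background on 0 arrays. In 24h_Cyt vs 24h_Ctrl 1 of the 11, miR-23b-3p, was called as higher (against 2.64% of all miRs) and 0 as lower (1.45%), and the median log2FC of the 3 detected was 0.17, against -0.0039 over the 168 detected miRs. In a fit to detected miRs alone, 1 of the 3 was called, against 17.3% of the 168. miR-23b-3p, encoded beside Mir24-1, read 10.22, 10.15 and 10.37 in 24h_Ctrl and 10.50, 10.53 and 10.62 in 24h_Cyt (log2FC 0.30, SE 0.066, 95% interval 0.16 to 0.44, adjusted p = 0.0108). Its 24h_Cyt arrays all lay above those of 24h_Ctrl, as they did for 16.4% of all miRs and 24.4% of the 168 detected in at least 1 group. The groups overlapped for miR-24-3p, and the difference between the partners was not tested. For miR-23b-3p, 24h_Ctrl also lay below 6h_Ctrl (24h_Ctrl vs 6h_Ctrl: log2FC -0.22, adjusted p = 0.822). It lay below 24h_Giv_Ctrl as well (24h_Giv_Ctrl vs 24h_Ctrl: 0.25, adjusted p = 0.405), while 24h_Cyt vs 6h_Cyt was 0.087 (adjusted p = 0.675). The call of miR-23b-3p was lost without 24h_Ctrl replicate 2 (log2FC 0.25, adjusted p = 0.0667), in the pooled correlation fit (same log2FC, SE 0.16, adjusted p = 0.221), when slide entered as a fixed block or slide 1 was left out (log2FC 0.35 and 0.37 with SE 0.12 and 0.099, adjusted p = 0.374 and 0.172), and with the signals scaled by an upper quartile (log2FC 0.019 to 0.088). miR-27b-3p had a log2FC of 0.17 (adjusted p = 0.268) and miR-23a-3p of 0.062 (adjusted p = 0.684).

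Of 19 other miRs with a known role in β-cells, 13 were detected in at least 1 group. The list was chosen with earlier results of these data known. It holds miRs that the paper had already reported as raised by cytokines on these arrays. Its counts and median set against those of all miRs are therefore partly fixed in advance, and are not an independent test of the list. In 24h_Cyt vs 24h_Ctrl 6 of the 19 were called as higher (miR-146a-5p, miR-96-5p, miR-21-5p and the 3 members of the miR-29 family) and 1 as lower, against 2.64% and 1.45% of all miRs, and the median log2FC of the 13 was 0.25, against -0.0039 over the 168 detected miRs. In a fit to detected miRs alone, 6 of the 13 were called as higher and 1 as lower, against 29 calls among the 168 (17.3%). Of these, miR-146a-5p was well above background on 6 of the 24 arrays, with signals from 5.41 to 6.28. It thus counts among the 13 through part of the groups alone, and its lower values were at background. The 7 calls became 4 without 24h_Ctrl replicate 2 and 1, that of miR-146a-5p, without slide 1, when slide entered as a fixed block or with the processed signal scaled by the upper quartile of all miRs. They became 10 higher and 2 lower of 17 tested with the processed signal scaled by detected miRs, and 9 and 2 of 17 with the total signal. Those processings called 20.9% and 21.2% of the miRs tested. Without normalization the calls became 16 and 0, against 22.8% of all miRs and the shift of 0.70 of the median detected miR. The 1 that fell was miR-182, which like miR-24, miR-26 and miR-148 is known to restrain repressors of insulin transcription. It read 7.50, 7.55 and 7.55 in 24h_Ctrl and 7.30, 7.36 and 7.37 in 24h_Cyt (log2FC -0.19, SE 0.035, 95% interval -0.27 to -0.12, adjusted p = 0.00364). With Givinostat and cytokines its arrays read 7.46, 7.46 and 7.36 (24h_Giv_Cyt vs 24h_Cyt: log2FC 0.084, adjusted p = 0.911). The call of miR-182 was lost with a log2FC of similar size in the pooled correlation fit (-0.19, SE 0.33), when slide entered as a fixed block (-0.18, SE 0.073) and without slide 1 (-0.16, SE 0.052). It was also lost with the processed signal scaled by the upper quartile of all miRs (-0.51, SE 0.30) and at a larger log2FC threshold tried here, and the sign turned without normalization (log2FC 0.62, against the shift of 0.70 of the median detected miR). In 24h_Giv_Cyt vs 24h_Cyt 1 of the 19 was called as higher, miR-146a-5p (log2FC 0.16, adjusted p = 0.0394), the only call among all miRs (0.132%), and 0 as lower. That call held in 6 of the 17 alternatives and with 12 of the 24 arrays left out in turn. Its log2FC was positive in all of these fits, some of which cannot alter it. miR-375-3p, the islet miR that restrains insulin secretion, had a log2FC of -0.30 in 24h_Cyt vs 24h_Ctrl (SE 0.12, adjusted p = 0.131). It passed as lower with the scaled processed and total signals (log2FC -0.54 and -0.56) and as higher without normalization (0.65, against the shift of 0.70).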

How the data were processed

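The 24 arrays (Agilent SurePrint G3, 758 rat miRs) were each deposited by the authors as a scanner file of spot intensity on a linear scale, not normalized between arrays, written by Agilent Feature Extraction 10.7.3.1 per the file headers (the submitters' processing notes name 9.1). A second, normalized form, log2 values per miR on 24 columns, was likewise deposited by the authors. Its column medians were 5.52 to 5.54, and it gave the same log2FC as the median over 16 quantile-normalized spots.

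Median foreground intensity without background correction was stripped of control spots, quantile-normalized and log2-transformed, and the 16 spots of a miR were reduced to their mean on each array, following the paper's methods up to this step. A model in limma 3.58.1 (R 4.3.3) with a mean for each of 8 groups (16 residual degrees of freedom) gave 12 pairwise comparisons and 3 interaction terms, and the latter had no log2FC threshold. The 17 alternatives changed the signal column, background correction, scaling, summary over spots, filter, slide or replicate block, samples fitted or threshold. The paper's fit with a pooled correlation over spots was an alternative, since spots of an array share their RNA. Its counts of called miRs equalled those in the paper for the 12 comparisons, so the counts reported here differ from the paper's. The fit was tested on simulated data. The precision is limited by 3 arrays per group.

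The miRs, lists and tests were chosen with earlier results of these data known. Named are the 6 miRs, for each detected one the 3 miRs with the highest Pearson's r over the 24 arrays among those detected on all arrays, the list of arms and cluster partners, the β-cell list with its called members and miR-182, and the cell type markers. Among list members that were not called, miR-27b-3p, miR-23a-3p and miR-375-3p were named after their values were seen. Probe positions are those of the array annotation (rn4). RefSeq tables (GRCr8) gave mature sequences for all 6 miRs. Leaving out arrays 6h_Giv_Ctrl replicate 1 and 6h_Giv_Cyt replicate 3 from the correlations was chosen after seeing the data. Figures were drawn with matplotlib 3.10.9. The qRT-PCR, islet and functional experiments are not covered.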

Additional observations from a re-analysis of the deposited data

How the results depend on the processing

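Of the 6 miRs, 0 were called in any comparison or interaction term with each of the 24 arrays left out in turn. Under the 17 other alternatives, members were called as follows. Without normalization between arrays 4 were called in 24h_Cyt vs 24h_Ctrl (22.8% of all miRs, median log2FC of the detected miRs 0.70), 2 in 24h_Giv_Cyt vs 24h_Giv_Ctrl (42.6%, 0.43), 4 in 24h_Cyt vs 6h_Cyt (16.1%, 0.61) and 3 for the difference between the cytokine effects at 24 h and 6 h (6.73%, 0.61). In 24h_Cyt vs 24h_Ctrl, 3 were called with the processed signal and 3 with the total signal scaled by the upper quartile of detected miRs (against 20.9% and 21.2% of the miRs tested), 2 in the pooled correlation fit (6.33%) and 1 (miR-148a-3p) without a log2FC threshold (6.07%). The pooled correlation fit also called 1 for the Givinostat interaction at 24 h (2.9%). The remaining alternatives called 0.

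The pooled correlation fit, the replicate block, the fits to detected miRs or compared groups alone and the changed thresholds cannot alter a log2FC. The deposited values repeat the median over spots. With these counted in, 96 of 1020 log2FC values of the 4 detected miRs had the other sign under the alternatives, 6 of them by more than 1 SE on both sides. For miR-24-3p without normalization these were 0.88 in 24h_Cyt vs 24h_Ctrl, 0.27 in 24h_Giv_Cyt vs 24h_Giv_Ctrl and 0.32 in 24h_Giv_Cyt vs 6h_Giv_Cyt. For miR-26a-5p they were -0.12 and -0.13 in 6h_Giv_Ctrl vs 6h_Ctrl (processed and total signal) and -0.50 in 24h_Giv_Cyt vs 24h_Giv_Ctrl (processed signal, all miRs). The cause was not tested, except that without normalization the median of the detected miRs shifts as given above, and by 0.38 in 24h_Giv_Cyt vs 6h_Giv_Cyt.

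The replicate numbers did not pair the arrays: deviations of same-numbered arrays correlated at -0.93 to 0.96 (median 0.11), and 7 of 24 arrays were most like an array of the same number. With the replicate block 0 members were called in every comparison, and 30 of 758 miRs, against 31, in 24h_Cyt vs 24h_Ctrl. That count was 48 in the pooled correlation fit, 173 without normalization, 77 of 369 and 65 of 306 with the scaled processed and total signals, 13 of 353 with scaling by all miRs, 3 without slide 1 (which leaves 1 array of 24h_Cyt, assumed to vary like the other groups), 1 with slide as a fixed block and 14 to 44 with arrays left out. Over the alternatives it ranged from 1 to 323 in 24h_Giv_Cyt vs 24h_Giv_Ctrl (4 as reported), 2 to 122 in 24h_Cyt vs 6h_Cyt (6), 1 to 51 for the time interaction (4) and 0 to 24 in 24h_Giv_Cyt vs 24h_Cyt (1).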
